A study of Mus musculus with 6 samples.

Results

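Genes of the major histocompatibility complex (MHC) were examined in livers of Acsm3 knockout and control mice. They were taken by name: every listed gene whose symbol begins with H2-, the mouse MHC prefix, together with Cd74, Ciita, B2m, Tap1, Tap2, Tapbp and Nlrc5. This gave 40 of the 28450 genes listed, of which 27 belong to the class I pathway and 12 to the class II pathway. The remaining gene, H2-Ke6, lies in the MHC but encodes a dehydrogenase and no MHC chain. It was at 0.109 FPKM in controls and 0.112 FPKM in knockouts on average and was not tested.

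The study asked how the liver transcriptome differs in mice that lack Acsm3, a gene for an enzyme that activates medium-chain fatty acids in mitochondria. Poly(A)-selected RNA from whole liver was sequenced from 3 male knockout mice (genotype label Acsm3 knockout) and 3 male control mice (genotype label WT). All 6 were 12 weeks old and were fed a normal diet. The strain, the disrupted part of Acsm3 and whether the controls were littermates are not stated in the labels used here. Class I genes differ in sequence and number between mouse strains, which is known from the field and was not examined in these libraries.

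MHC class I molecules sit on nearly all nucleated cells and show peptides from the cytosol to CD8 T cells. Each is a heavy chain (H2-K1, H2-D1 and relatives) bound to beta-2-microglobulin, the product of B2m. The transporter Tap1 and Tap2 brings peptides into the endoplasmic reticulum, tapasin (Tapbp) bridges it to the empty chain, and NLRC5 drives transcription. MHC class II molecules pair an alpha with a beta chain (H2-Aa with H2-Ab1, or an E alpha chain with H2-Eb1) and show peptides taken up from outside the cell to CD4 T cells. They are made mainly by dendritic cells, macrophages and B cells, under the control of CIITA. The invariant chain (Cd74) holds the groove closed until the endosome, where H2-DM exchanges its last fragment for a peptide and H2-O restrains that exchange. In liver, hepatocytes carry class I, and class II is normally found on the immune cells of the sinusoids and portal tracts.

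Expression is given in FPKM, fragments scaled to transcript length and library total, as deposited. The steps between low values implied 15360000 to 16280000 fragments per library. Genes averaging 1 FPKM or more over the 6 libraries (10996 genes) were tested with limma on log2(FPKM + 1), and a gene was called when its Benjamini-Hochberg adjusted p was at most 0.05. Fold changes on this scale are knockout minus control, given ± the SE, and understate the change of genes at low FPKM. Acsm3 was at 33.2, 34.4 and 32.2 FPKM in controls 1, 2 and 3, against 0.668, 2.92 and 1.08 FPKM in the knockouts of those numbers (log2 fold change -3.84 ± 0.29, adjusted p = 0.00338), so every library matched its label. Calls were common and uneven, with 1532 genes higher and 287 lower in the knockout, and the median of all fold changes was 0.13 on the log2 scale. After median-ratio scaling that median was 4e-04 and the calls were 840 higher (7.64%) and 736 lower. Of the 40 MHC genes, 24 passed the filter, and the lowest control mean among them was 1.58 FPKM. Thus no tested member passed through the knockout samples alone. Knockout 3 lay closer to the controls than knockouts 1 and 2 for many of the genes below, so values without it are given beside the results it touches.

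All 6 tested class II genes were higher in the knockout livers, by 3.08-fold to 4.91-fold in group means. Among all tested genes 13.9% were called higher. In each of the 6 genes the 3 knockout values lay above the 3 control values, which was the case for 33.9% of all tested genes. Each also differed by at least 2-fold in group means, as did 5.73% of all tested genes. The median log2 fold change of the 6 was 1.93, against 0.13 over all tested genes. In whole-liver RNA, a larger number of class II-bearing cells and more class II RNA per cell cannot be told apart.

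H2-Aa, the alpha chain of the A molecule (ENSMUSG00000036594, minus strand of chromosome 17 at 34282744 to 34287827, GRCm38), was at 13.5, 11.6 and 14.2 FPKM in controls 1, 2 and 3, against 67.5, 69.3 and 35.7 FPKM in knockouts 1, 2 and 3. The lowest knockout was thus well above the highest control, and knockout 3 was the lowest of its group. The means, 13.1 ± 1.35 and 57.5 ± 18.9 FPKM (SD, n = 3), differed 4.39-fold, with a log2 fold change of 1.998 ± 0.25 (limma, adjusted p = 0.00957). Its partner H2-Ab1, the beta chain (ENSMUSG00000073421, plus strand at 34263209 to 34269418), was at 12.6, 10.7 and 8.75 FPKM in controls against 67.4, 57.1 and 21.9 FPKM in knockouts. Its SE was the largest of the tested class II genes, and its log2 fold change came to 1.96 ± 0.40 (limma, adjusted p = 0.0259). H2-Eb1, the beta chain of the E molecule (ENSMUSG00000060586, plus strand at 34305877 to 34316199), was at 16.7, 14.1 and 14.9 FPKM in controls against 90.9, 89.6 and 44.3 FPKM in knockouts. It had the largest rise of the class II genes, 4.91-fold, with a log2 fold change of 2.16 ± 0.27 (limma, adjusted p = 0.00957). The H2-Aa to H2-Ab1 ratio of FPKM was 1.07, 1.08 and 1.62 in controls and 1.002, 1.21 and 1.63 in knockouts, and the groups overlapped.

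The invariant chain gene Cd74 (ENSMUSG00000024610), the most abundant class II pathway transcript by FPKM, was at 39.4, 37.1 and 37.0 FPKM in controls and reached 180.2, 186 and 91.0 FPKM in knockouts. Controls lay within a few FPKM of each other, while knockout 3 was again well below the other knockouts. The 4.03-fold difference of the means had a log2 fold change of 1.91 ± 0.26 (limma, adjusted p = 0.0118). Relative to H2-Aa, Cd74 was at a ratio of 2.92, 3.20 and 2.61 in controls and 2.67, 2.68 and 2.55 in knockouts, overlapping between groups.

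The peptide exchanger H2-DM rose with the chains it serves. H2-DMb1, its beta subunit (plus strand of chromosome 17 at 34153072 to 34160230), was at 2.47, 1.28 and 1.63 FPKM in controls against 8.52, 8.36 and 4.62 FPKM in knockouts, with a log2 fold change of 1.53 ± 0.24 (limma, adjusted p = 0.0151). H2-DMa, the alpha subunit (plus strand at 34135182 to 34139101), was at 1.42, 1.89 and 1.44 FPKM in controls against 6.65, 5.14 and 2.83 FPKM in knockouts, with a log2 fold change of 1.13 ± 0.25 (limma, adjusted p = 0.0296). H2-DMa was lower relative to H2-Aa in every knockout: the ratio was 0.105, 0.163 and 0.101 in controls and 0.0984, 0.0741 and 0.0792 in knockouts, and the smallest p that an exact permutation test of 3 against 3 allows is 0.1. Of the 50-base stretches of H2-DMb1 transcripts, 22.7% also occur in H2-DMb2, so how fragments were shared between these copies limits both values.

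Leaving out knockout 3 kept all 6 class II calls, with log2 fold changes from 1.41 (H2-DMa) to 2.49 (H2-Eb1). Leaving out another mouse cost calls: 3 genes were called without control 2, control 3 or knockout 2, and 4 without control 1 or knockout 1. H2-Aa, H2-Eb1 and Cd74 were called in each of these fits. H2-Ab1 and H2-DMa were lost whenever any mouse other than knockout 3 was left out, with limma adjusted p up to 0.0874 and 0.0977, and H2-DMb1 without control 2, control 3 or knockout 2, with adjusted p up to 0.0592. Testing all genes without the filter on low values also ended the calls of H2-Ab1 (limma, adjusted p = 0.0675) and H2-DMa (0.0749), and it called 2.08% of all genes higher.

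The 6 class II genes below 1 FPKM were not tested. Ciita, the master regulator of class II transcription (plus strand of chromosome 16 at 10480059 to 10528418), was at 0.212, 0.232 and 0.234 FPKM in controls and reached 1.13, 0.932 and 0.558 FPKM in knockouts. These values correspond to about 33, 35 and 35 fragments in controls and 167, 137 and 86 in knockouts, so the 3.87-fold difference rests on modest but not minimal depth. Every knockout was above every control, a pattern found in 14% of the genes under 1 FPKM, and in the fit of all genes without a filter the adjusted p was 0.0675 (limma). Ciita exons overlap those of Dexi on the other strand over 329 bases, and whether counting used strand is not stated in the labels used here. H2-Aa per Ciita was at a ratio of 63.7, 50.01 and 60.8 in controls and 59.7, 74.3 and 64.0 in knockouts, with overlap. H2-DMb2, a second beta chain of H2-DM, was at 0.286 to 0.447 FPKM in controls and 0.578 to 0.994 FPKM in knockouts, without overlap. H2-Ob, the beta chain of the H2-O regulator, was at 0.240 to 0.343 FPKM in controls and 0.412 to 0.725 FPKM in knockouts, also without overlap. For H2-Oa, its alpha chain, and for H2-Eb2 the groups overlapped, and H2-Pb was listed at 0 in every library except knockout 2.

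**Figure D1:**
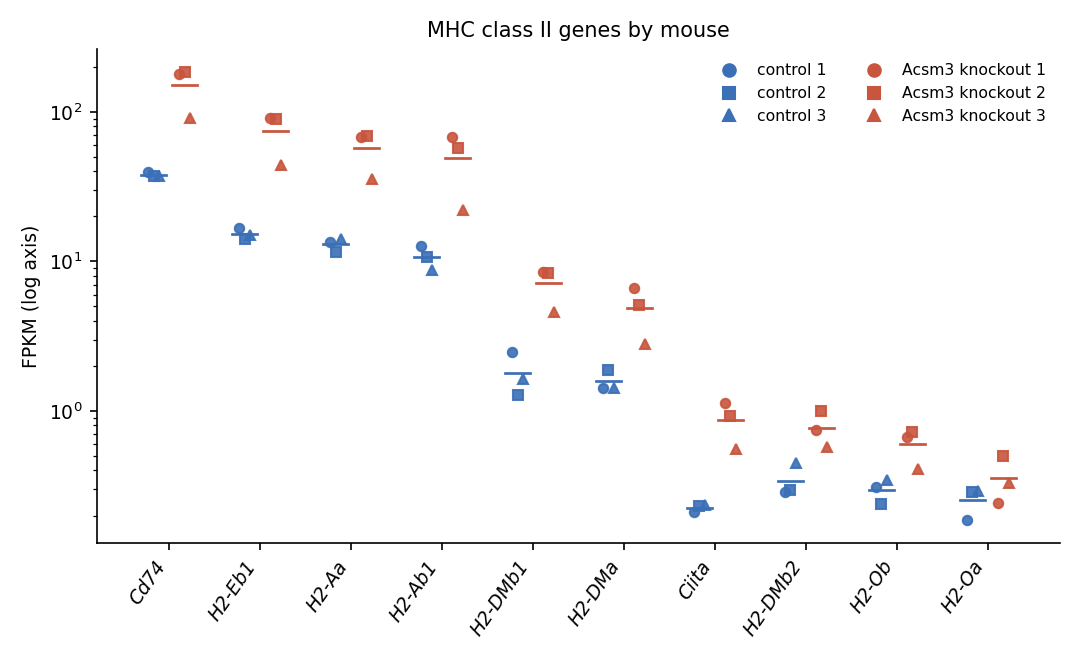
FPKM of 10 class II genes in each library on a log axis, with controls in blue and knockouts in red. Points are single mice and lines are group means, and H2-Eb2 and H2-Pb, which have zeros, are not drawn. In all 6 tested genes the knockout points lie above the control points, as Cd74 with 37.0 to 39.4 FPKM against 91.0 to 186 FPKM, and knockout 3 is the lowest knockout.

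Class II promoters are known for a conserved arrangement of an X box, bound by the RFX complex, and a Y box, bound by NF-Y, on which CIITA is recruited. The 120 bases before the RefSeq start (GRCm38.p6) of 3 of the genes that rose are printed here to show this arrangement, 5′ to 3′ along the gene. Capitals mark matches on either strand to a core of the X1 box (GNAACT), of the X2 box (TGACG) and of the Y box (ATTGG).
H2-Aa, chr17:34287824-34287943, minus strand: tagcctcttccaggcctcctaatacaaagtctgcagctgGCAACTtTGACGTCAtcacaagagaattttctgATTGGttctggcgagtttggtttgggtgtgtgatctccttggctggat
H2-Eb1, chr17:34305747-34305866, plus strand: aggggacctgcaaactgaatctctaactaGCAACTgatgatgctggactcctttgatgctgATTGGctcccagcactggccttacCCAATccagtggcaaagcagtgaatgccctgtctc
H2-DMb1, chr17:34153071-34153190, plus strand: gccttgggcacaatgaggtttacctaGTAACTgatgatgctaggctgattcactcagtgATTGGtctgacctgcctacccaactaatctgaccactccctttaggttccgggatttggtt
In each of the 3 an X1 core is followed by a Y box on the gene's own strand. The bases between them number 27 in H2-Aa, 26 in H2-Eb1 and 27 in H2-DMb1. H2-Aa also carries overlapping X2 cores on both strands directly after its X1 core.

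Windows from 250 bases before to 50 after the start were searched for 8 of the 12 class II genes and 18 of the 27 class I genes (27 genes in all with H2-Ke6, and 29 windows). H2-Ab1 and Cd74 are not among them. Member windows on chromosome 18, where Cd74 lies, were left out of the search, so the counts do not cover Cd74. An X1 core and a Y box on the same strand with 20 to 40 bases between them occurred in 4 of 8 class II genes (H2-Aa, H2-Eb1, H2-DMb1 and H2-Eb2), in 0 of 18 class I genes and in 0.925% of 32851 RefSeq promoter windows. A Y box alone was in 8 of 8 class II genes and in 37.4% of all windows. An X1 core was in 5 of 8 class II genes (42.8% of all windows) and an X2 core in 1 of 8 (20.8%). H2-Eb2 holds the pair and did not separate between the groups, at 0.222, 0 and 0.230 FPKM in controls and 0.145, 0.414 and 0.112 FPKM in knockouts. The motifs and the spacing were chosen with the sequences in view, and a match in these letters is not a bound site.

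**Figure D2:**
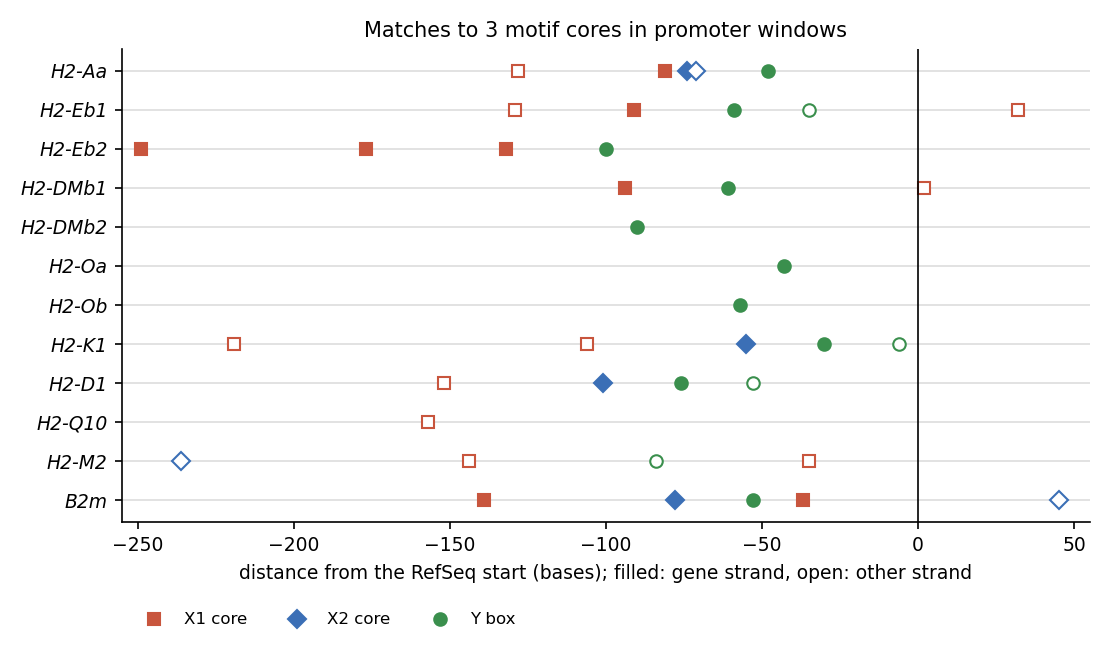
Positions of X1 core, X2 core and Y box matches in the promoter windows of 7 class II genes (top rows) and 5 class I genes (bottom rows), against distance from the RefSeq start in bases, with filled marks on the gene's strand and open marks on the other. The X1 and Y matches of H2-Aa, H2-Eb1, H2-DMb1 and H2-Eb2 form a pair on the gene's strand with 26 or 27 bases between them, and none of the 5 class I genes has such a pair.

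Markers of some immune cells differed between the groups as well. Among all tested genes 13.9% were called higher, and 7.64% after median-ratio scaling. That share was 18.1% without knockout 3 and 2.03% to 4.9% without any other mouse. In the main fit 2.61% of all tested genes were called lower. These shares stand beside the counts of each list below. All 6 pan-leukocyte markers were called higher, and their summed level was 25.1 to 27.4 FPKM in controls and 41.4 to 67.7 FPKM in knockouts, a 2.17-fold difference of means. Laptm5, a lysosomal protein of blood cells, was at 4.99, 5.67 and 4.35 FPKM in controls against 15.6, 18.7 and 9.87 FPKM in knockouts (log2 fold change 1.35 ± 0.22, limma adjusted p = 0.0153). Next on the log2(FPKM + 1) scale were the leukocyte tetraspanin Cd53, with a log2 fold change of 0.97 ± 0.17 (adjusted p = 0.01995), and the lymphocyte surface antigen Cd52, with 0.88 ± 0.20 (adjusted p = 0.0330). Knockout 3 had the lowest sum of the knockouts, as it did for class II. After median-ratio scaling 4 of 6 were called. Ptprc, with a control mean of 0.916 FPKM, passed the filter on low values only through the knockouts. These counts rest on all mice: without knockout 3 all 6 were called, without control 1 the count was 2, without knockout 1 or knockout 2 it was 1, and without control 2 or control 3 it was 0.

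Macrophage and monocyte markers gave 5 of 7 tested genes higher (4 of 7 after median-ratio scaling), and their sum was 78.0 to 127.8 FPKM in controls and 151.8 to 288.2 FPKM in knockouts. The fractalkine receptor Cx3cr1 rose from 0.126 to 0.177 FPKM in controls to 1.54 to 2.34 FPKM in knockouts (limma, adjusted p = 0.00546). It had a control mean of 0.153 FPKM, and the chemokine receptor Ccr2 one of 0.355 FPKM against 1.86 FPKM in knockouts, so both of these called genes passed the filter only through the knockouts. The lysosomal glycoprotein Cd68 and lysozyme Lyz2 rose 2.85-fold and 2.47-fold (limma, adjusted p = 0.0293 and 0.0402). The entry read for Itgam, the integrin alpha M chain (ENSMUSG00000108596), was at 0 in 5 libraries and at 0.0127 FPKM in control 1. Only the first entry of a symbol was read, so whether Itgam has another entry was not examined. The macrophage count was 7 without knockout 3 and 2 without any other mouse. Kupffer cell markers went in both directions. Of 6 tested, Cd5l rose 2.39-fold (limma, adjusted p = 0.0360), while the scavenger receptor Cd163 and the phosphatidylserine receptor Timd4 fell to 0.327 and 0.458 of control (limma, adjusted p = 0.0345 and 0.0191). Without any mouse other than knockout 3 the counts were 0 higher and 0 to 2 lower.

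Among 9 dendritic cell markers 2 passed the filter, and the integrin alpha X chain Itgax was called, at 0.331, 0.368 and 0.278 FPKM in controls and 3.54, 3.37 and 1.58 FPKM in knockouts (log2 fold change 1.49 ± 0.22, limma adjusted p = 0.0132). With a control mean of 0.326 FPKM, Itgax passed the filter only through the knockouts, and its call was lost without control 2, control 3 or knockout 2. The sum of the 9 was 3.62 to 4.09 FPKM in controls and 5.87 to 9.55 FPKM in knockouts. B cell markers did not separate: 0 of 2 tested were called, and Ighm, the IgM heavy chain, was at 8.99, 19.6 and 7.02 FPKM in controls against 4.02, 121 and 14.1 FPKM in knockouts. Both antibody genes, Ighm and Jchain, were highest in knockout 2. All 8 T cell and all 6 natural killer cell markers were below the filter, with sums of 1.02 to 1.69 FPKM and 0.583 to 1.45 FPKM in controls and 2.14 to 3.82 FPKM and 0.626 to 2.25 FPKM in knockouts. Of 5 neutrophil markers, Retnlg and S100a8 were called higher, both with control means (0.172 and 0.480 FPKM) that let them pass the filter only through the knockouts, while Ly6g was listed at 0 in all libraries and Mpo in 5 of 6. Of other cell types, 2 of 6 sinusoidal endothelial and 4 of 5 stellate cell markers were called higher, and all 5 cholangiocyte markers were below the filter. Hepatocyte markers identified the tissue as labelled, led by albumin at 21103 FPKM or more in every library, and summed to 45709 to 54021 FPKM in controls and 33702 to 37705 FPKM in knockouts. Of 8 tested, Alb and Ttr were called lower and Hnf4a higher, beside 2.61% lower and 13.9% higher over all tested genes. The Hnf4a call was lost after median-ratio scaling and without control 2, control 3 or knockout 1, and the count lower was 0 after quantile normalization and without any mouse other than knockout 3. Without any mouse other than knockout 3, 0 neutrophil, 0 sinusoidal endothelial and 2 stellate cell markers were called.

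The class II genes were also compared with the leukocyte markers as a ratio in each library. The 10 class II chain genes with an H2- symbol summed to 47.7, 40.4 and 42.3 FPKM in controls and 243, 232 and 111 FPKM in knockouts, a 4.49-fold difference. Divided by the pan-leukocyte sum, this gave 1.75, 1.47 and 1.68 in controls and 3.81, 3.43 and 2.67 in knockouts, a 2.02-fold difference without overlap. The same ratio was 1.86-fold higher against macrophage and monocyte markers and 2.02-fold higher against dendritic cell markers, both without overlap, and it overlapped against B cell markers. Such sums weigh abundant markers most: Lyz2 made 63.8 of the 105 FPKM of macrophage and monocyte markers in controls on average. Cx3cr1, Ccr2 and Itgax, with control means under 1 FPKM, rose 12.9-fold, 5.23-fold and 8.69-fold, more than the class II chains. The other tested macrophage, monocyte and dendritic cell markers rose less than the class II chains. H2-Aa per Ptprc, the gene of the leukocyte antigen CD45, was at 15.6, 11.1 and 17.02 in controls and at 25.6, 26.4 and 27.4 in knockouts. In that ratio knockout 3 was level with the other knockouts. The exact permutation test of 3 against 3 cannot give a p below 0.1 for any of these ratios. The part of the leukocyte markers in the class II difference was not tested.

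**Figure D3:**
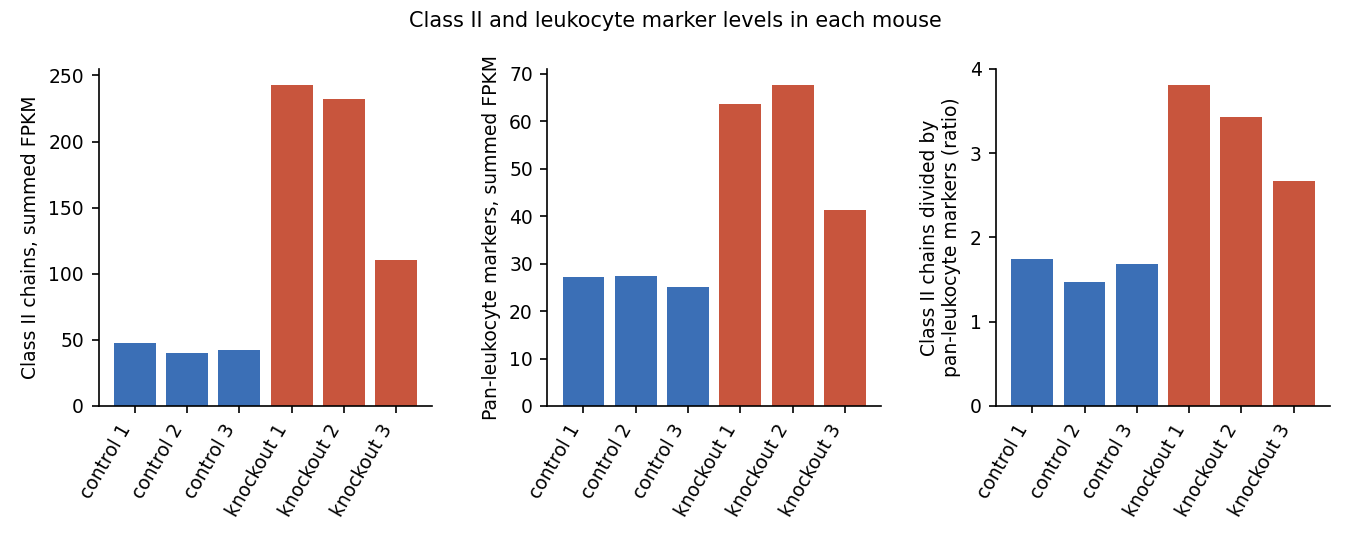
Summed FPKM of the class II chains, summed FPKM of the pan-leukocyte markers, and the ratio of the sums. Each bar is 1 mouse, with controls in blue and knockouts in red. The ratio is 1.47 to 1.75 in controls and 2.67 to 3.81 in knockouts.

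In the list of class II peptide loading and turnover, 5 of 7 tested genes were called higher and none lower, with a median log2 fold change of 0.68. Over all tested genes 13.9% were called higher. After median-ratio scaling 3 of 7 were called, and 6 of 7 without knockout 3, 1 without control 1 and 0 without any other mouse. Cathepsin S (Ctss), which trims the invariant chain, was at 27.3, 31.5 and 22.9 FPKM in controls against 84.7, 90.8 and 50.3 FPKM in knockouts (log2 fold change 1.40 ± 0.23, limma adjusted p = 0.0167). Ifi30, a thiol reductase that unfolds endosomal antigens, rose 2.45-fold, and the endopeptidase Lgmn rose 2.2-fold (limma, adjusted p = 0.0376 and 0.0294). Of the proteins that assemble on class II promoters 1 of 7 was called, the NF-Y subunit Nfya, from 1.57 to 1.85 FPKM in controls to 2.24 to 2.71 FPKM in knockouts (limma, adjusted p = 0.0490). The count was 0 of 7 after median-ratio or quantile scaling and without any single mouse. Rfx5, the DNA-binding subunit of RFX, was at 1.87, 1.59 and 1.38 FPKM in controls against 2.56, 1.69 and 1.41 FPKM in knockouts and was not called.

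Interferon gamma is the main known inducer of CIITA and of class I genes. Its own transcript Ifng was listed at 0 in 5 libraries and at 0.101 FPKM in knockout 2. In the list of its signalling genes 6 of 10 tested genes were called higher, with a median log2 fold change of 0.44, and 2 of 10 after median-ratio scaling. Over all tested genes the shares called higher were 13.9% and 7.64%. The myeloid interferon regulatory factor Irf8 was at 1.33, 1.26 and 1.15 FPKM in controls against 3.26, 3.53 and 2.14 FPKM in knockouts (limma, adjusted p = 0.0213), followed on the log2(FPKM + 1) scale by the receptor chain Ifngr1, with 0.63, and the kinase Jak1, with 0.47. Of 18 tested interferon targets outside the MHC, 7 were called higher, with or without median-ratio scaling. The chemokines Cxcl10 and Cxcl9 rose 3.35-fold and 2.76-fold, and the guanylate-binding protein Gbp2 rose 2.70-fold (limma, adjusted p = 0.0148, 0.0187 and 0.00853). In the list of costimulatory and inhibitory surface molecules, Cd274 (PD-L1, an inhibitory ligand) and the costimulatory Cd86 passed the filter. They rose 2.45-fold and 2.16-fold (limma, adjusted p = 0.0354 and 0.0334). Cd274, with a control mean of 0.854 FPKM, passed the filter only through the knockouts, as did 2 of the 7 called targets, Gbp6 and Tgtp1 (0.777 and 0.666 FPKM in controls). Without knockout 3 the counts were 7 signalling genes, 8 targets and 2 costimulatory or inhibitory genes. Without any other mouse they were 0 signalling genes, 1 to 3 targets and 0 costimulatory or inhibitory genes.

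Of 18 tested class I genes 2 were called higher and 0 lower, which is 11.1% against 13.9% higher over all tested genes. At an unadjusted p under 0.05 the count was 7 of 18, or 38.9%, beside 35.3% over all genes. Groups did not overlap in 8 of 18, all higher in the knockout, against 33.9% of all genes, and in 0 of 18 lower, against 7.91%. The median log2 fold change was 0.25, which is 0.12 above the median of all tested genes. Of the 18 fold changes 16 were above 0, and 12 were after median-ratio or quantile scaling. The share of class I genes called is thus near that of all tested genes.

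The classical heavy chains were abundant in both groups. H2-K1 was at 504, 452 and 352 FPKM in controls against 505, 460.4 and 394 FPKM in knockouts, with overlap and a log2 fold change of 0.06 ± 0.16 (limma, adjusted p = 0.802). H2-D1 was at 251, 225 and 176 FPKM in controls against 292, 259 and 219.9 FPKM in knockouts, also overlapping, with 0.25 ± 0.16 (limma, adjusted p = 0.312). Control 3 was the lowest library for both. The ratio of H2-D1 to H2-K1 varied less than either gene: it was 0.499, 0.497 and 0.501 in controls and 0.578, 0.563 and 0.558 in knockouts, so every knockout was higher, by 1.14-fold on average. Of the 50-base stretches of these genes, 12.8% in H2-D1 and 9.63% in H2-K1 recur in other genes, mostly of the class I family.

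B2m, the light chain shared by class I molecules, was the most abundant member at 1844, 1674 and 1458 FPKM in controls and 1953, 2045 and 1969 FPKM in knockouts. The groups did not overlap, and the log2 fold change of 0.27 ± 0.11 missed the threshold (limma, adjusted p = 0.128). It passed in 1 of the other settings, quantile scaling (adjusted p = 0.0350). H2-Q10, a secreted class I molecule made by hepatocytes, was at 232, 232 and 191 FPKM in controls against 281, 287 and 249.7 FPKM in knockouts. It too did not overlap and was not called (log2 fold change 0.32 ± 0.11, limma adjusted p = 0.0811), except with array weights or the replicate block (lowest adjusted p = 0.0408).

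H2-Q1 stood apart from the rest of class I. This heavy chain gene of the Q region (ENSMUSG00000079507, plus strand of chromosome 17 at 35320405 to 35325099) was at 1.88, 1.88 and 1.65 FPKM in controls against 9.70, 8.34 and 6.59 FPKM in knockouts, or about 88, 85 and 74 against 430, 366 and 304 fragments. All knockouts were far above all controls, and the 4.56-fold difference had a log2 fold change of 1.70 ± 0.13 (limma, adjusted p = 0.00370). It was called in each of the 17 settings in which it was tested, with adjusted p up to 0.0255. With a control mean of 1.80 FPKM, it passed the filter at 5 FPKM only through the knockouts, so its call in that setting adds no support. In H2-Q1, 15% of 50-base stretches recur in other genes. The gene that shares most with it, H2-Q2, was at 0.145 to 0.204 FPKM in controls and 0.206 to 0.300 FPKM in knockouts. These values did not overlap but rest on about 5 to 10 fragments per library. The abundant H2-D1, at 176 to 292 FPKM, has 5.87% of its stretches in H2-Q1. The part of shared fragments in the H2-Q1 values was not tested.

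H2-T24, a heavy chain gene of the T region (minus strand at 36005695 to 36020560), was the other class I gene called. Its FPKM were 2.02, 2.23 and 1.52 in controls and 4.12, 3.62 and 3.17 in knockouts, with a log2 fold change of 0.67 ± 0.13 (limma, adjusted p = 0.0223). Its call was lost when any mouse other than knockout 3 was left out and when no filter was used, with adjusted p up to 0.0763. H2-M2, a heavy chain gene at the distal end of the region (minus strand at 37480851 to 37483552), was below the filter with 0.158, 0.0407 and 0.0821 FPKM in controls and 2.77, 1.56 and 0.717 FPKM in knockouts. These values rest on about 4, 1 and 2 fragments in controls and 67, 37 and 18 in knockouts, so the 18.0-fold ratio of means is imprecise. In the fit of all genes without a filter its adjusted p was 0.0756 (limma).

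None of the other tested nonclassical chains was called. H2-T23, whose product Qa-1 presents leader peptides to natural killer cell receptors, was at 74.0, 74.5 and 56.3 FPKM in controls against 71.5, 69.3 and 64.4 FPKM in knockouts (log2 fold change 0.01 ± 0.12, limma adjusted p = 0.953). H2-T22, a ligand of gamma-delta T cells, had a log2 fold change of 0.25 and the Q-region genes H2-Q4, H2-Q5 and H2-Q6 had 0.26, 0.10 and 0.10, none of them called. H2-M3, which presents formylated bacterial peptides, was at 2.25, 1.63 and 2.21 FPKM in controls against 4.42, 2.32 and 3.48 FPKM in knockouts (0.52 ± 0.19, limma adjusted p = 0.104). H2-Q7, a gene of the Qa-2 antigen, and H2-K2 had negative fold changes, of -0.23 ± 0.12 and -0.18 ± 0.22. H2-Q7 was not called (limma, adjusted p = 0.206) except after median-ratio scaling, where it was called lower (adjusted p = 0.0475). Between 21.8% and 36.4% of the 50-base stretches of H2-Q4, H2-Q5, H2-Q6, H2-Q7 and H2-T22 recur in other genes, so these 5 values depend on how shared fragments were assigned, which is not stated in the labels used here. H2-T22 and H2-Q4 also share 1003 and 496 exon bases with genes on the other strand. Summed over its 22 heavy chain genes, class I was at 845 to 1149 FPKM in controls and 1013 to 1266 FPKM in knockouts, with overlap.

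None of the peptide-loading genes of class I was called. Tap1 was at 4.65, 5.01 and 3.85 FPKM in controls against 8.10, 6.55 and 5.01 FPKM in knockouts (log2 fold change 0.44 ± 0.16, limma adjusted p = 0.105). Tapbp was at 20.2, 20.4 and 18.3 FPKM in controls against 27.7, 27.2 and 21.3 FPKM in knockouts (0.35 ± 0.11, limma adjusted p = 0.0768). Knockout 3 was the lowest knockout for both, and without it both were called, Tap1 at 0.60 (limma, adjusted p = 0.0318) and Tapbp at 0.46 (adjusted p = 0.0183). This took the class I count without knockout 3 to 4 of 18, or 22.2%, near the 18.1% of all tested genes called higher in that fit. Tap2 (0.17 ± 0.11, adjusted p = 0.327) and the class I regulator Nlrc5 (0.15 ± 0.15, adjusted p = 0.490) were not called by limma. Tapbp shares 904 exon bases with a gene on the other strand and 149 with a gene on its own strand. Tap2 shares 533 and 165 with genes on the other strand, and strand use is not stated in the labels used here. Tap1 shares 212 exon bases with the immunoproteasome gene Psmb9 on the other strand. Psmb9 itself was at 2.30 to 3.76 FPKM in controls and 2.80 to 4.35 FPKM in knockouts.

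Upstream of the transporter, 0 of 10 genes of the immunoproteasome and peptide supply list were called by limma, against 16.5% of all tested genes in either direction. An unadjusted p under 0.05 was found in 1 of 10, against 35.3% of all tested genes. Calnexin (Canx), the chaperone of new heavy chains, was nearest with 70.7 to 80.5 FPKM in controls and 85.2 to 94.5 FPKM in knockouts (limma, adjusted p = 0.0755). Among the constitutive proteasome counterparts 0 of 4 were called, with 1 of 4 at an unadjusted p under 0.05. Of 5 tested class I-like genes outside the complex 1 was called, the iron regulator Hfe, from 11.9 to 13.0 FPKM in controls to 16.3 to 16.5 FPKM in knockouts (limma, adjusted p = 0.0218). After median-ratio scaling Hfe was not called and 1 other gene of that list was called lower, and without any mouse other than knockout 3 the count was 0.

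The 9 class I genes below the filter had means over the 6 libraries of 0.00961 to 0.888 FPKM, the highest being H2-M2. Besides H2-M2, H2-Q2 and the pseudogene H2-M6-ps did not overlap between groups, and both were higher in the knockout. That pattern was found in 14% of the genes under 1 FPKM. H2-Q2 had about 7, 5 and 7 fragments in controls and 7, 10 and 9 in knockouts, so its fragment numbers met. H2-M6-ps had about 3, 3 and 0 fragments in controls and 5, 6 and 5 in knockouts. In H2-T10, H2-T-ps, H2-Bl, H2-M5, H2-M10.2 and H2-M10.6 the groups overlapped. H2-M5, H2-M10.2 and H2-M10.6 had at most 3 fragments in any library and were at the detection limit.

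**Figure D4:**
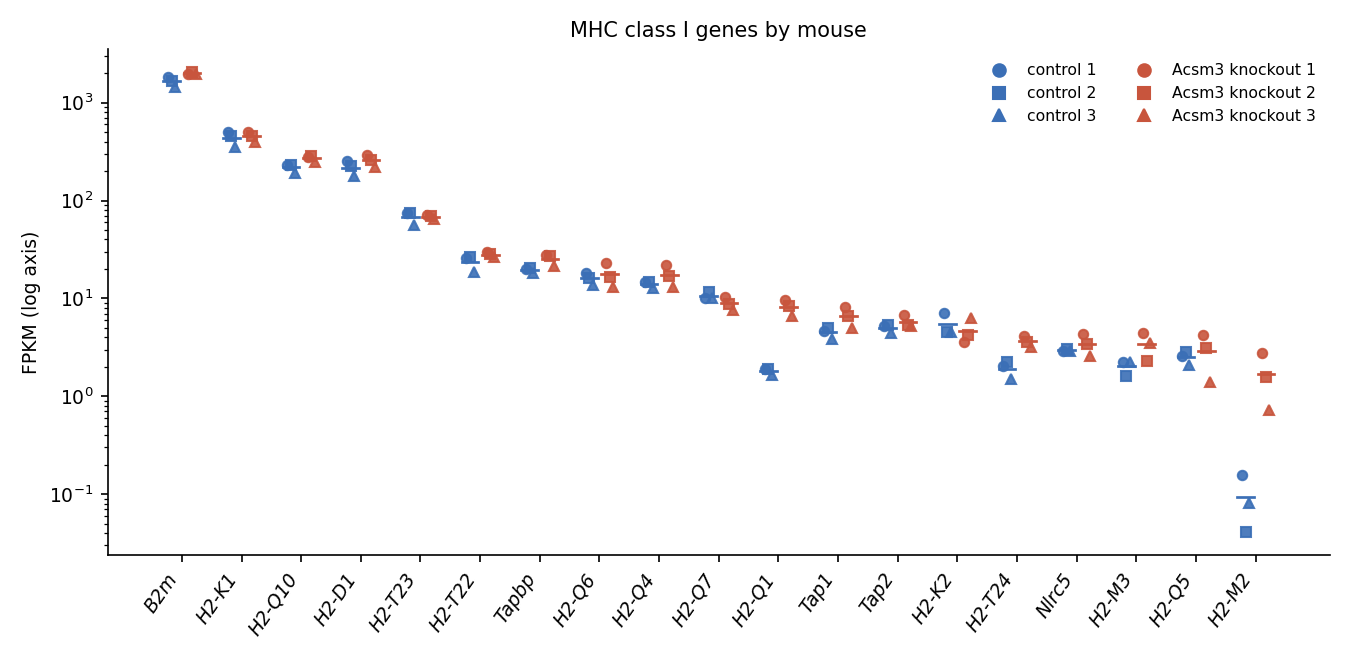
FPKM of the 18 tested class I genes and H2-M2 in each library on a log axis, with controls in blue and knockouts in red. Points are single mice and lines are group means. H2-Q1 separates clearly, at 1.65 to 1.88 FPKM in controls and 6.59 to 9.70 FPKM in knockouts, while abundant genes such as H2-K1 overlap.

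Promoters of class I genes are shown for comparison with those of class II, again as the 120 bases before the RefSeq start and with the same capitals. H2-K1, H2-D1 and B2m are constitutive class I genes, H2-Q10 is the liver's secreted one, and H2-M2 had the highest ratio between groups among class I genes with over 3 fragments in a library. For H2-K1 the first of its RefSeq windows is shown.
H2-K1, chr17:34000334-34000453, minus strand: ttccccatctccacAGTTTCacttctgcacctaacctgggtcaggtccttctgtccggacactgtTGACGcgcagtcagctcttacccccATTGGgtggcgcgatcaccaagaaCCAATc
H2-D1, chr17:35262974-35263093, plus strand: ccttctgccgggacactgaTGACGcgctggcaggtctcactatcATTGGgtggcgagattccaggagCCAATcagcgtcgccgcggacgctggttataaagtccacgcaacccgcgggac
B2m, chr2:122147567-122147686, plus strand: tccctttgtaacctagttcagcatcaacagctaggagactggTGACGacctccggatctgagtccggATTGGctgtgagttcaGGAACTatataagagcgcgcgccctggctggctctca
H2-Q10, chr17:35469969-35470088, plus strand: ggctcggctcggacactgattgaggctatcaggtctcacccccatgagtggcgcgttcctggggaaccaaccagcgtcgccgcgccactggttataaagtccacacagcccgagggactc
H2-M2, chr17:37483555-37483674, minus strand: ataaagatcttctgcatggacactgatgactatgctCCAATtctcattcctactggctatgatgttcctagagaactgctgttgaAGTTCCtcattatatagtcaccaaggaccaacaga
H2-K1, H2-D1 and B2m each hold an X2 core and a Y box, and none of the 5 holds the X1 and Y pair of the class II genes. H2-Q10 has no match in this stretch, and its longer window holds neither a Y box nor an X2 core. Over the longer windows a Y box was present in 16 of 18 class I genes (all but H2-Q10 and H2-M5), an X1 core in 14 and an X2 core in 9. The core of an interferon-stimulated response element (GAANNGAAA) was present in 8 of 18 class I genes, in 0 of 8 class II genes and in 7.52% of all promoter windows. The 8 were H2-K1, H2-D1, H2-Q4, H2-Q6, H2-Q7, H2-Q10, H2-M2 and H2-M3. The class I genes called higher, H2-Q1 and H2-T24, have no window in the table used here and were not searched.

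Set side by side, class II fold changes lay above those of class I with 1 exception. The lowest called class II value was 1.13, of H2-DMa, and H2-Q1 with 1.70 was the only tested class I gene above it. Next in class I came H2-T24 with 0.67, H2-M3 with 0.52 and Tap1 with 0.44. The order of the class II genes was H2-Eb1, H2-Aa, H2-Ab1, Cd74, H2-DMb1 and H2-DMa, and neighbours in this order differed by less than the sum of their SEs. All 6 class II fold changes were positive under median-ratio and quantile scaling as well, and all 6 were called.

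**Figure D5:**
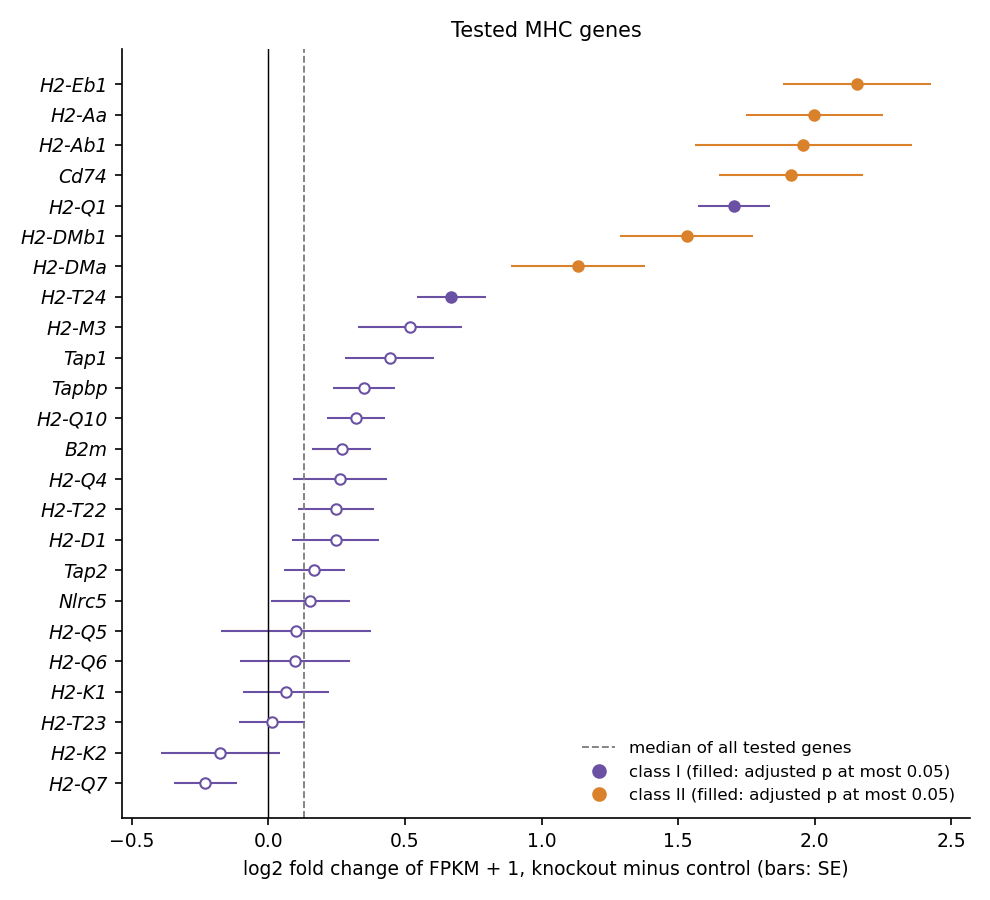
Log2 fold change (knockout minus control, log2 of FPKM + 1) of the 24 tested MHC genes with SE bars from limma, in order of size, with class II in orange and class I in purple and filled points for called genes; the dashed line is the median of all tested genes. Class II values run from 1.13 to 2.16, and class I values are below 0.70 except for H2-Q1 at 1.70.

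The genes of the MHC on chromosome 17 are neighbours, so the others in the region were counted too. Between Tapbp and H2-M2 (33915899 to 37483552) 177 other genes are listed, of which 75 were tested. Of these 9 were called higher and 2 lower, against 13.9% higher and 2.61% lower over all tested genes. The 9 higher are 12% of the 75, whose median log2 fold change was 0.10. With 1 mouse left out the higher calls numbered 1 to 12, the most without knockout 3. The H2- genes of class II lie within it at 34073762 to 34340229, and class I heavy chain genes lie on both sides.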

How the data were processed

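Liver RNA of 3 Acsm3 knockout and 3 control mice was sequenced, and the FPKM of 28450 genes were deposited by the authors in a single table, with identifiers, symbols and positions. The submitters' processing notes list StringTie 1.3.0, HISAT2 2.0.4, Bowtie2 2.2.6 and GRCm38 with no roles. For strand use and for fragments shared by paralogs, the sources used here give no procedure. Groups and replicate numbers come from the sample titles, and each value column matched 1 title. P-values measure the spread between 3 mice per group.

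Genes averaging 1 FPKM or more (10996) went into limma 3.58.1 (R 4.3.3; lmFit, eBayes with a trend) on log2(FPKM + 1), with Benjamini-Hochberg adjustment over all of them and a threshold of 0.05. FPKM times union exon length (GENCODE M21) moved in steps, and the library total at which 99.6% to 99.7% of values under 20 fragments came within 0.1 of a whole number was taken as the implied depth. Recovered fragments summed to 102.9% to 103.4% of these totals, so they are estimates. Fragments are quoted only for genes whose position matched the annotation (28 of 40 members). For 50-base stretches shared with other genes, annotated transcript sequences (GENCODE M21) were compared. Promoters are RefSeq windows (GRCm38.p6) searched on both strands. An X1 core is GNAACT, an X2 core TGACG, a Y box ATTGG, and the interferon element core GAANNGAAA.

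Named genes were every member, Acsm3, and for each other list up to 3 called genes of largest absolute log2 fold change (on FPKM + 1) or the 2 of smallest p. Outside this rule, Ptprc, Ccr2, Gbp6, Tgtp1, Itgam, Ly6g, Mpo, Ifng, Rfx5, Dexi and Psmb9 were chosen after their values were seen. The members, lists and alternatives were chosen with earlier results of these data known. Alternatives were pseudocounts of 0.1 and 5, no filter, a filter at 5 FPKM, median-ratio scaling, quantile normalization, no trend, robust empirical Bayes, array weights, a replicate block and leaving out each mouse. Voom on recovered fragments, the motifs and the motif spacing were chosen after seeing the data. The rest ran in Python 3.11.15 (numpy 2.4.6, pandas 2.3.3), with plots from matplotlib 3.10.9.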

Additional observations from a re-analysis of the deposited data

How the results depend on the processing

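Class II kept its 6 calls with either pseudocount, after median-ratio scaling or quantile normalization, without the trend, with robust empirical Bayes, with array weights and with voom. It had 4 calls with no filter. With the filter at 5 FPKM only 4 class II genes were tested, and all 4 were called. Leaving out 1 mouse gave 3 to 6 class II calls. The class I count of 2 became 1 with no filter, 5 with array weights, and 1 to 4 when 1 mouse was left out. It was 1 of 14 with the filter at 5 FPKM, under which H2-T24 was not tested. The gene called there was H2-Q1, which passed that filter only through the knockouts. Over all genes the 1819 calls became 650 with no filter, 1108 of 5571 tested with the filter at 5 FPKM, 3279 with array weights, and 279 to 2271 when 1 mouse was left out. A fit with 1 mouse fewer has less power and the filter at 5 FPKM tests fewer genes, but the calls rose to 2271 without knockout 3. The causes of these shifts were not tested. With the replicate number as a block, 2018 genes were called, with 6 of 18 class I and 6 of 6 class II genes. Deviations of mice with the same number correlated at 0.111, 0.092 and 0.187, so the numbers were not taken to pair the mice, although each knockout correlated best with the control of its own number. Under these alternatives no called member changed sign, while the uncalled fold changes of H2-K1, H2-K2, H2-Q5, H2-Q6, H2-T23 and Nlrc5 changed sign in some of them. Of the fold changes of all tested members 370 stayed on the same side of the threshold, 21 lost the call and 11 gained it. Depth limits the genes under 1 FPKM, of which H2-M2 had at most 4 fragments in a control.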
